A study of Mus musculus with 17 samples.

Results

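The genes described here belong by name to families that make, break down and read out cyclic AMP (cAMP). They were taken as every gene symbol of the 3 count tables that is an adenylyl cyclase (Adcy followed by a number), a cyclic nucleotide phosphodiesterase (Pde, a number and a letter from a to d) or a subunit of protein kinase A (Prkaca, Prkacb, Prkar1a, Prkar1b, Prkar2a or Prkar2b). That gave 38 of 25239 genes: 10 cyclases, 22 phosphodiesterases and 6 kinase subunits. Bulk RNA was sequenced from cortex of mice of the DAT-cre line, in which Cre is expressed in dopamine neurons, and all 6 groups share that line. In oDASS an animal can switch on light that stimulates its dopamine neurons. The labels call addicted mice perseverers and non-addicted mice renouncers. Tissue imprints of the orbitofrontal cortex (OFC) taken before oDASS gave 2 perseverer and 3 renouncer libraries. Dissections taken after oDASS gave 3 perseverer and 3 renouncer libraries of the OFC, and 3 and 3 of the medial prefrontal cortex (mPFC). The labels give no ages, do not tell which replicates are animals of their own, and hold no group without oDASS besides the imprints taken before it. The p-values thus measure the spread between these libraries, which may be technical.

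Adenylyl cyclases turn ATP into cAMP under the control of G proteins, and some of them also answer to calcium and calmodulin. Protein kinase A is a complex of regulatory and catalytic subunits: cAMP binds the regulatory ones and frees the catalytic ones, which phosphorylate channels, receptors and transcription factors such as CREB. Phosphodiesterases end the signal by hydrolysing cAMP, cyclic GMP or both. In cortex the pathway is read out downstream of dopamine, noradrenaline and other receptors and bears on synaptic plasticity and working memory.

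Libraries held 8960549 to 20945108 counts. Haemoglobin genes took 85.4% to 90.7% of the counts in 4 of the 5 imprints and 29.7% in imprint renouncer 1, which stands apart with 6556037 counts outside those genes against 980475 to 1306576 in the other imprints. A member had a median count of 8 to 21.5 in those 4 imprints, 147 in imprint renouncer 1 and 205.5 to 427.5 in the 12 dissections. Markers of cortical excitatory neurons, a list of 6 genes that includes Slc17a7, were all above 0 in every library, and their summed level was 1300 to 2888 CPM in imprints, 3237 to 4872 CPM in OFC dissections and 2949 to 6317 CPM in mPFC dissections. CPM denotes counts relative to the library total after 1 trimmed-mean (TMM) scaling of the 17 libraries, fixed so that the dissections keep their usual scale. Levels of different genes are compared as CPM per kb of the deposited gene length.

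Kinase subunits stood above the cyclases and the phosphodiesterases, with classes taken by gene symbol. The phosphodiesterase class includes Pde6d, at 17.3% of its level per length in dissections, and Pde5a and Pde9a, which are specific for cyclic GMP. Summed over the members of a class, the level per length in the 12 dissections was 877 ± 146 CPM per kb for kinase subunits, 278 ± 20.2 for phosphodiesterases and 113 ± 16.2 for cyclases (SD, n = 12 each). In the 5 imprints the sums were 457 ± 23.8, 185 ± 30.9 and 63.9 ± 18.8 CPM per kb. The members ran from Prkar1b at 424 ± 85.0 CPM per kb down to Pde6a, a photoreceptor subunit, at 0.00794. Of the 38 members, 34 entered at least 1 of the 7 tests. Pde4c, a cAMP-specific phosphodiesterase, and the photoreceptor subunits Pde6a, Pde6b and Pde6c entered none, because their counts were too low. Adcy10, the bicarbonate-sensitive soluble cyclase, was at 0 in all 5 imprints and at 0.0925 CPM per kb in dissections.

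**Figure D1:**
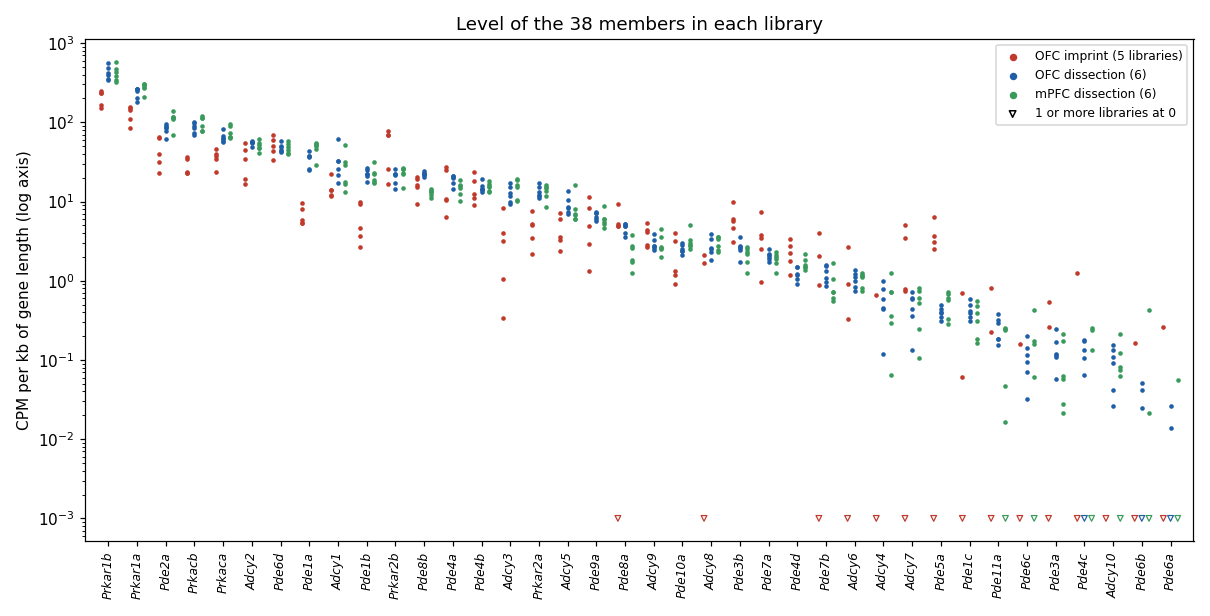
Level of each member in every library as CPM per kb of gene length on a log axis, in descending order of the mean over dissections, with OFC imprints in red, OFC dissections in blue and mPFC dissections in green. Open triangles mark members with at least 1 library at 0 in that set. Prkar1b and Prkar1a lie highest, and 15 members were at 0 in at least 1 imprint.

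Among the cyclases, Adcy2, which Gβγ subunits stimulate, led with 53.1 ± 5.59 CPM per kb (SD, n = 12 dissections). In imprints Adcy2 stood at 81.2 and 143 CPM in perseverers, against 188, 69.4 and 229 CPM in renouncers. In OFC dissections Adcy2 stood at 238, 235 and 246 CPM in perseverers, against 234, 236 and 208 CPM in renouncers. In mPFC dissections Adcy2 stood at 220.1, 256 and 198 CPM in perseverers, against 202, 234 and 174 CPM in renouncers. Its coefficient of variation over the 12 dissections was 10.5%, the lowest of the 38 members, and its phenotype groups overlapped in all 3 sets of libraries.

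Adcy1, the calmodulin-stimulated cyclase of neurons, came next among the cyclases with 29.2 ± 14.8 CPM per kb and a coefficient of variation of 50.6%. In imprints Adcy1 stood at 145 and 171 CPM in perseverers, against 277, 147 and 171 CPM in renouncers. In OFC dissections Adcy1 stood at 316, 209.8 and 767 CPM in perseverers, against 265, 401 and 396 CPM in renouncers. In mPFC dissections Adcy1 stood at 385, 206 and 641 CPM in perseverers, against 358, 161 and 216 CPM in renouncers. Perseverer 3 was the highest library of both regions, and the phenotype groups overlapped in each set. The ratio of Adcy1 to Adcy2 per length ran from 0.236 to 1.11 over the 12 dissections, so that which of the 2 cyclases led depended on the library.

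Adcy3, known from olfactory neurons and from primary cilia, had 13.8 ± 3.62 CPM per kb. Adcy3 in imprints stood at 4.95 and 15.1 CPM in perseverers, against 18.9, 38.8 and 1.58 CPM in renouncers. Adcy3 in OFC dissections stood at 61.1, 81.5 and 46.2 CPM in perseverers, against 71.2, 55.1 and 44.5 CPM in renouncers. Adcy3 in mPFC dissections stood at 89.2, 91.9 and 48.0 CPM in perseverers, against 72.4, 75.9 and 49.0 CPM in renouncers. Every imprint lay below every dissection. Of the Adcy3 exon bases 22.1% are shared with Cenpo on the other strand, and the kit does not keep the strand, so reads of the shared part cannot be told apart. The other cyclases had 8.75 CPM per kb for Adcy5, which Gi proteins and calcium inhibit, 2.96 for Adcy9, 2.88 for the calmodulin-stimulated Adcy8, 1.05 for Adcy6, 0.565 for Adcy4 and 0.489 for Adcy7.

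Among the phosphodiesterases, Pde2a, which cyclic GMP stimulates to hydrolyse cAMP, led with 96.4 ± 22.3 CPM per kb and made up 34.4% ± 5.82 of the class per length (SD, n = 12 dissections). Pde2a in imprints stood at 114.9 and 199 CPM in perseverers, against 158, 316 and 322 CPM in renouncers. Pde2a in OFC dissections stood at 476, 442 and 430.0 CPM in perseverers, against 424, 387 and 308 CPM in renouncers. Pde2a in mPFC dissections stood at 583, 584 and 683 CPM in perseverers, against 545, 561 and 347 CPM in renouncers. In both regions every perseverer dissection lay above every renouncer dissection. That held for 4.79% of genes tested in the OFC and 5.22% in the mPFC, each region counted alone. In imprints both perseverer libraries lay at or below 199 CPM, and renouncer 1 fell between them. The annotation places 64.3% of the Pde2a exon bases within Gm45837 as well, a protein-coding entry on the same strand, so its counts are uncertain.

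Pde6d, a photoreceptor subunit by name that also carries prenylated proteins in other tissues, followed with 47.6 ± 6.17 CPM per kb. In imprints Pde6d stood at 48.5 and 88.1 CPM in perseverers, against 103, 63.8 and 74.3 CPM in renouncers. In OFC dissections Pde6d stood at 63.8, 65.2 and 71.1 CPM in perseverers, against 62.6, 73.0 and 84.8 CPM in renouncers. In mPFC dissections Pde6d stood at 59.6, 57.9 and 72.7 CPM in perseverers, against 66.5, 77.5 and 85.2 CPM in renouncers. The 3 sets of libraries overlapped throughout.

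The calmodulin-dependent Pde1a hydrolyses both nucleotides and had 41.0 ± 10.6 CPM per kb. Pde1a in imprints stood at 44.6 and 30.2 CPM in perseverers, against 32.2, 52.7 and 30.04 CPM in renouncers. Pde1a in OFC dissections stood at 206, 211 and 138 CPM in perseverers, against 239, 145 and 211 CPM in renouncers. Pde1a in mPFC dissections stood at 297, 286 and 163 CPM in perseverers, against 280.1, 258 and 307 CPM in renouncers. Every imprint was at or below 52.7 CPM and every dissection at or above 138 CPM. Its relative Pde1b had 22.1 CPM per kb. The cAMP-specific enzymes Pde8b, Pde4a and Pde4b had 17.6, 16.8 and 15.2. The striatal enzyme Pde10a was at 2.89 CPM per kb, and Pde9a, which is specific for cyclic GMP, at 6.33.

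The neural type I regulatory subunit Prkar1b was the highest member at 424 ± 85.0 CPM per kb. Prkar1b in imprints stood at 729 and 471 CPM in perseverers, against 772, 505 and 715 CPM in renouncers. Prkar1b in OFC dissections stood at 1298, 1725 and 1087 CPM in perseverers, against 1475, 1043 and 1233 CPM in renouncers. Prkar1b in mPFC dissections stood at 1442, 1789 and 993 CPM in perseverers, against 1189, 1310 and 1055 CPM in renouncers. No phenotype pair of groups was apart, and perseverer 2 was the highest library in both regions.

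Prkar1a, the type I subunit of most tissues, was second at 256 ± 40.0 CPM per kb. In imprints Prkar1a stood at 641 and 622 CPM in perseverers, against 574, 452 and 345 CPM in renouncers. In OFC dissections Prkar1a stood at 1014, 1068 and 730.2 CPM in perseverers, against 1054, 831 and 1057 CPM in renouncers. In mPFC dissections Prkar1a stood at 1189, 1244 and 844 CPM in perseverers, against 1105, 1228 and 1121 CPM in renouncers. Both perseverer imprints lay above the 3 renouncer imprints, while in the dissections the phenotypes overlapped and perseverer 3 was the lowest library of each region.

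Prkacb, a catalytic subunit abundant in brain, had 92.4 ± 16.95 CPM per kb, and Prkaca, the catalytic subunit of most tissues, had 69.7. Prkacb in imprints stood at 118.8 and 186 CPM in perseverers, against 173, 116.5 and 115.4 CPM in renouncers. Prkacb in OFC dissections stood at 452, 516 and 349 CPM in perseverers, against 502, 368 and 433 CPM in renouncers. Prkacb in mPFC dissections stood at 579, 609.8 and 400.0 CPM in perseverers, against 462, 569 and 396 CPM in renouncers. The imprints lay below all 12 dissections. Prkacb made up 56.9% ± 1.98 of the catalytic level per length in dissections (SD, n = 12) and 43.8% ± 7.61 in imprints (SD, n = 5).

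Type I subunits made up 95.1% ± 0.409 of the regulatory level per length in the 12 dissections, with a range of 94.3% to 95.8%. In the 5 imprints they made up 85.3% ± 8.19, from 77.1% to 95.4%. The type II subunit Prkar2b, known from brain and fat, took 4.08% and 18.1% in perseverer imprints and 5.9998%, 21.5% and 17.6% in renouncer imprints, against 2.57% to 3.90% in dissections. All 5 imprints lay above the dissections, and 3 of them stood apart from the other 2. The 3 imprints with the larger share were those with fewest counts outside haemoglobin, 980475 to 1082408.

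**Figure D2:**
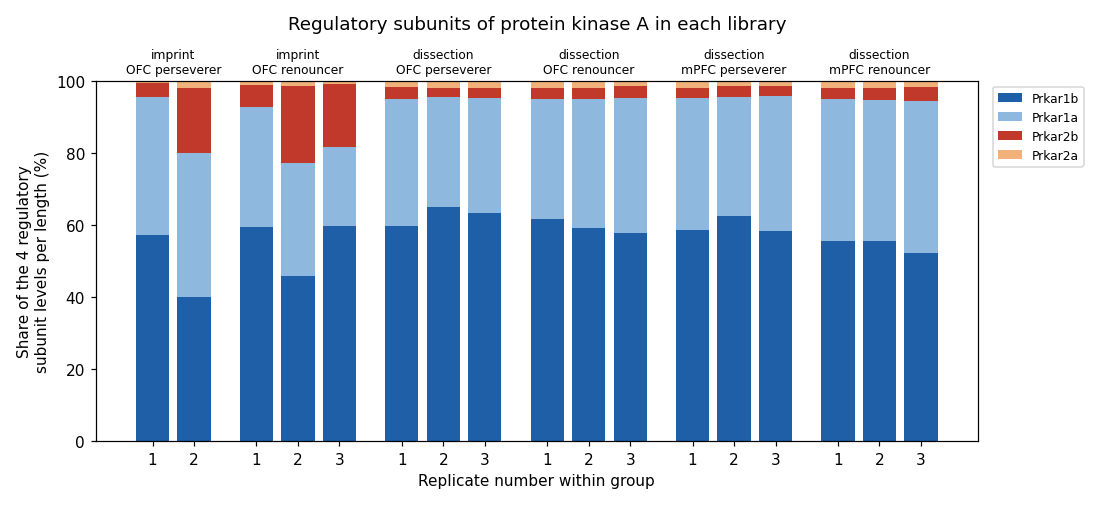
Share of each regulatory subunit of protein kinase A in the summed level per length of the 4, in percent, for each of the 17 libraries by group and replicate number. In dissections Prkar1b takes 52.2% to 64.9% and Prkar1a 30.5% to 42.1%, together 94.3% to 95.8%. Prkar2b (red) takes 17.6% to 21.5% in 3 imprints.

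The question of sequence is limited here to the element that CREB binds, TGACGTCA, and its shorter form TGACG, searched on both strands in the 250 bases before each RefSeq start (GRCm38.p6). A start was listed for 30 of the 38 members. The full element was present in 1 of the 30 (3.33%), against 1.77% of 27025 genes, and the shorter form, which the full element contains, in 10 of 30 (33.3%), against 19.8%. Members have more listed starts than genes at large, 67 windows for the 30, and per window the shares were alike: the shorter form was in 12 of 67 (17.9%), against 17.8% of 32851 windows, and the full element in 1 of 67 (1.49%), against 1.55%. The 10 genes were Adcy7, Adcy9, Pde1a, Pde4a, Pde4b, Pde8a, Prkaca, Prkacb, Prkar1a and Prkar1b. The full element lies before a start of Prkar1a at chr11:109650889-109650918 on the plus strand, shown because it is the only one among the members, with the element in capitals and its first base 49 bases upstream of that start.
Prkar1a: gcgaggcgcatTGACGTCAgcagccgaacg
A match describes the letters in the window and is not evidence of a bound site.

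Between regions, the cAMP-specific high-affinity phosphodiesterases Pde8b and Pde8a were higher in the OFC than in the mPFC dissections. They were the 2 of 34 tested members past an adjusted p of 0.05 in edgeR's quasi-likelihood test with phenotype as a term, where 1.76% of 15025 genes passed. Both were higher, a direction in which 0.892% of genes passed, and no member was lower. The members' median log2 fold change was -0.01, and -0.03 to 0.03 without 1 library, against 0.00 over all genes tested.

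Pde8b lies at chr13:95024454-95250336 on the minus strand (GRCm38). In OFC dissections Pde8b stood at 113.7, 116 and 125.2 CPM in perseverers, against 112.1, 113 and 105 CPM in renouncers. In mPFC dissections Pde8b stood at 74.4, 72.9 and 67.2 CPM in perseverers, against 61.9, 68.1 and 56.9 CPM in renouncers. The 6 OFC libraries, 114.3 ± 6.50 CPM (SD, n = 6), all lay above the 6 mPFC libraries, 66.9 ± 6.63 CPM (SD, n = 6). The log2 fold change was 0.76 ± 0.09 (SE, adjusted p = 3.59e-04), the tenth smallest p of the 15025 genes. Pde8b was the only tested member whose regions did not overlap, which held for 1.9% of all genes and in that direction for 1.29%. Leaving out each of the 12 libraries in turn kept the call, with log2 fold changes of 0.73 to 0.79. In OFC imprints Pde8b stood at 48.5 and 78.0 CPM in perseverers, against 98.1, 105 and 82.2 CPM in renouncers.

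Pde8a lies at chr7:81213596-81334533 on the plus strand (GRCm38). In OFC dissections Pde8a stood at 21.7, 14.9 and 20.4 CPM in perseverers, against 16.5, 21.5 and 20.3 CPM in renouncers. In mPFC dissections Pde8a stood at 11.5, 5.23 and 10.7 CPM in perseverers, against 7.51, 7.05 and 15.8 CPM in renouncers. Mean levels were 19.2 ± 2.82 CPM (SD, n = 6) in the OFC and 9.62 ± 3.81 CPM (SD, n = 6) in the mPFC, and the regions overlapped through mPFC renouncer 3 and OFC perseverer 2. The log2 fold change was 0.98 ± 0.23 (SE, adjusted p = 0.0468), and the call was lost in 9 of the 12 fits without 1 library, with adjusted p of 0.0524 to 0.12 and log2 fold changes of 0.86 to 1.07. In OFC imprints Pde8a stood at 21.8 and 20.1 CPM in perseverers, against 38.9, 0 and 20.6 CPM in renouncers, so that 1 imprint was at 0.

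Of 7 oligodendrocyte markers all had a positive log2 fold change between regions, with a median of 0.74, and 0 passed the test. Their summed level, with every gene above 0 in every library, was 14561, 5907 and 19422 CPM in perseverers, against 8668, 12714 and 15464 CPM in renouncers in the OFC. In the mPFC the sum was 5021, 2105 and 6738 CPM in perseverers, against 4218, 2792 and 8155 CPM in renouncers. The sums of the regions overlapped. The lowest sum in each region was perseverer 2, which was also the lowest library for Pde8a there. The highest sum in the mPFC was renouncer 3, also the highest for Pde8a. In the OFC the highest sum was perseverer 3, while perseverer 1 was the highest for Pde8a. In a fit with the oligodendrocyte level as a covariate, chosen after the data were seen, the OFC over mPFC log2 fold change of Pde8a was 0.17 ± 0.20 (SE, adjusted p = 0.824) and that of Pde8b 0.81 ± 0.13 (SE, adjusted p = 0.0301). That fit called 21 genes between regions, against 264 without the covariate. Because the oligodendrocyte markers leaned to the OFC, it cannot tell their level apart from region. Other marker lists leaned to 1 region too and were not used as covariates. Positive were 6 of 7 astrocyte markers, 5 of 7 meningeal fibroblast markers and all 4 neutrophil and monocyte markers tested. Of these, 1 astrocyte marker and 1 neutrophil and monocyte marker passed. Interneuron and oligodendrocyte precursor markers leaned to the mPFC, with 1 of 6 and 1 of 5 positive. In bulk RNA fewer cells of a type and less RNA per cell cannot be told apart.

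The windows before the RefSeq starts of the 2 genes are given because both moved in the same direction. For Pde8a it is chr7:81213015-81213264 on the plus strand, and capitals mark TGACG, whose first base lies 84 bases upstream of the start. For Pde8b it is chr13:95250337-95250586 on the minus strand, the window of 1 of its 5 listed starts, and none of the 5 windows holds either form on either strand.
Pde8a: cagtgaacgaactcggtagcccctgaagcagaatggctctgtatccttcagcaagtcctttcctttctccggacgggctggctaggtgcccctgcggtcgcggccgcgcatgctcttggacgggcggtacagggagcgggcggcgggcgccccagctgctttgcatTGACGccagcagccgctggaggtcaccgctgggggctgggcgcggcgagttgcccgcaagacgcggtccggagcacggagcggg
Pde8b: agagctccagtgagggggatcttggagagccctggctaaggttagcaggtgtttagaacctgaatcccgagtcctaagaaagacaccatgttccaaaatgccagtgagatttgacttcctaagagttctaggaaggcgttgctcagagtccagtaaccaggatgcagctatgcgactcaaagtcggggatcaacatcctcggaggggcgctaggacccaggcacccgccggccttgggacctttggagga
The G and C content is 68.8% for Pde8a and 54.4% for Pde8b.

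Of the members that missed the threshold, 6 had an unadjusted p under 0.05, against 2151 of all 15025 genes including the 2 called. Pde2a had a log2 fold change of -0.44 ± 0.13 (SE, adjusted p = 0.101) and means of 411 ± 57.9 CPM (SD, n = 6) in the OFC and 550.4 ± 110.5 CPM (SD, n = 6) in the mPFC. Pde1a had -0.49 ± 0.15 (SE, adjusted p = 0.122), with 192 ± 40.6 CPM (SD, n = 6) in the OFC and 265 ± 52.8 CPM (SD, n = 6) in the mPFC. For Pde4a, a cAMP-specific enzyme, the value was 0.34 ± 0.11 (SE, adjusted p = 0.139), for its relative Pde4d -0.46 ± 0.17 (SE, adjusted p = 0.197), for Pde10a -0.36 ± 0.15 (SE, adjusted p = 0.281) and for Prkar1a -0.25 ± 0.11 (SE, adjusted p = 0.327). The test took the 12 dissections as separate. With same-numbered libraries of the 2 regions taken as pairs, Pde2a, Pde1a and Prkar1a also passed, and 5 members and 1130 genes were called. Whether those libraries share animals is not known. The lowest adjusted p of the 10 cyclases was 0.541, for Adcy3. The 6 kinase subunits had log2 fold changes from -0.25 for Prkar1a up to close to 0 for Prkar1b, with a median of -0.20. Type I subunits made up 95.1% ± 0.238 of the regulatory level in the OFC and 95.04% ± 0.553 in the mPFC (SD, n = 6 each).

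**Figure D3:**
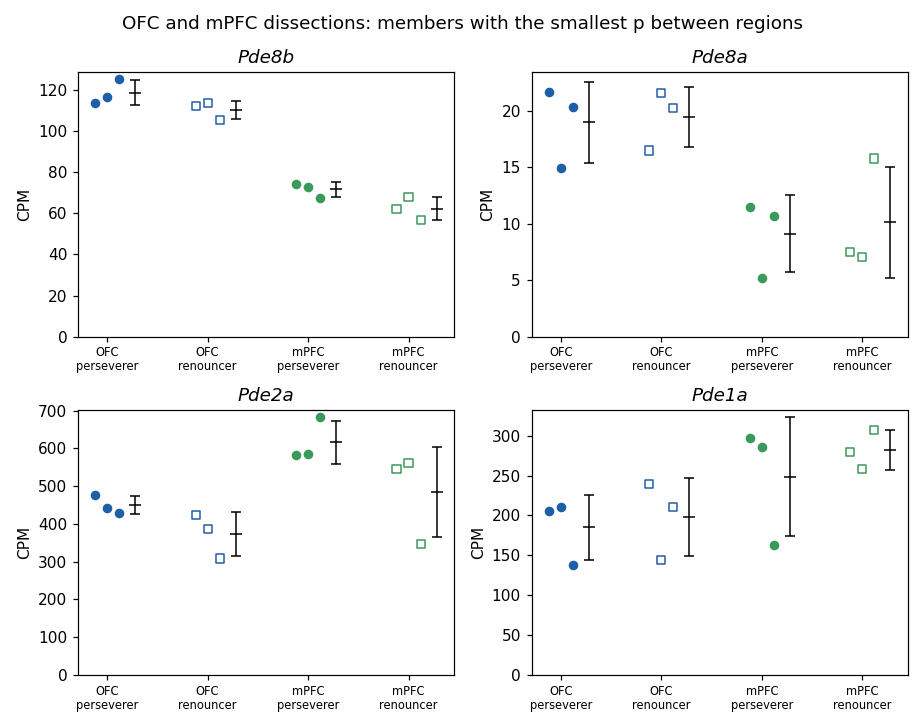
CPM of Pde8b, Pde8a, Pde2a and Pde1a in each dissection, with OFC in blue left of mPFC in green, perseverers as filled circles, renouncers as open squares, and the group mean ± SD in black. The regions are apart for Pde8b and overlap for the other 3.

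Of 53 partner genes in the tables (G proteins, anchoring proteins, inhibitor peptides, CREB and its coactivators, kinase substrates, exchange factors and guanylyl cyclases), 47 were tested between regions and 2 passed, 1 in each direction, with a median log2 fold change of 0.00. Ppp1r1b, a protein kinase A substrate that inhibits protein phosphatase when phosphorylated, was higher in the OFC by 0.76 ± 0.12 (SE, adjusted p = 0.00483). Akap8l, a nuclear protein related to the anchoring protein Akap8, was lower by -0.42 ± 0.10 (SE, adjusted p = 0.0391). Ppp1r1b is also 1 of 12 striatal projection neuron markers, whose summed level was 359, 355 and 307 CPM in perseverers, against 379, 336 and 365 CPM in renouncers in the OFC and 297, 276 and 222 CPM in perseverers, against 265, 281 and 321 CPM in renouncers in the mPFC. Without Ppp1r1b the sum of the other 11 was 189, 204 and 158 CPM in perseverers, against 224, 203.7 and 229.4 CPM in renouncers in the OFC and 175, 189.6 and 148 CPM in perseverers, against 182, 218 and 229.2 CPM in renouncers in the mPFC, so that the regions overlapped. Of the 10 striatal markers tested 4 had a positive log2 fold change, the median was -0.13 and only Ppp1r1b passed.

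Between imprints and dissections of the OFC, 16 of 33 tested members differed, 5 of them higher and 11 lower in imprints, where 33.5% of 15229 genes passed, 15.6% higher and 17.9% lower. All 6 kinase subunits were among the 16: 5 were lower and Prkar2b was higher. Of the 9 cyclases tested 3 were lower and 1 higher, and of the 18 phosphodiesterases 3 were lower and 3 higher. The members' median log2 fold change was -0.45, against -0.16 over all genes under TMM scaling. Leaving out 1 library gave medians from -0.66, without imprint renouncer 1, to -0.29, without imprint perseverer 1. With RLE scaling, another library scaling of edgeR, the medians were -0.30 and -0.03 and 14 members passed. Stage before or after oDASS and way of collection coincide in this comparison and cannot be told apart.

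Pde1a, whose libraries are given above, had the largest fall, with a log2 fold change of -2.29 ± 0.25 (SE, adjusted p = 3.98e-06). Its relative Pde1b, also calmodulin-dependent, fell too. Pde1b stood at 36.6 and 10.1 CPM in perseverers, against 34.6, 13.9 and 17.4 CPM in renouncers in imprints. In OFC dissections Pde1b stood at 84.1, 93.1 and 78.0 CPM in perseverers, against 99.4, 65.8 and 83.4 CPM in renouncers. Every Pde1b imprint lay below every dissection, with a log2 fold change of -1.68 ± 0.31 (SE, adjusted p = 5.25e-04). Pde2a fell by less, at -0.87 ± 0.27 (SE, adjusted p = 0.0217), and its call was lost without imprint renouncer 1 (adjusted p = 0.0788), perseverer 1 (0.0646) or perseverer 2 (0.0506).

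Of the kinase subunits, Prkacb had a log2 fold change of -1.54 ± 0.22 (SE, adjusted p = 4.39e-05). Prkaca stood at 58.4 and 98.2 CPM in perseverers, against 87.3, 113.8 and 93.3 CPM in renouncers in imprints. In OFC dissections Prkaca stood at 159, 206 and 143 CPM in perseverers, against 170.1, 143 and 152 CPM in renouncers. The Prkaca groups did not overlap and the log2 fold change was -0.80 ± 0.22 (SE, adjusted p = 0.00961). Prkar2a, the type II subunit of most tissues, stood at 10.9 and 37.75 CPM in perseverers, against 26.2, 25.0 and 17.4 CPM in renouncers in imprints. In OFC dissections Prkar2a stood at 65.8, 86.0 and 59.3 CPM in perseverers, against 75.5, 58.9 and 55.5 CPM in renouncers. The Prkar2a groups did not overlap either, with -1.47 ± 0.31 (SE, adjusted p = 0.00154). Prkar1b and Prkar1a were lower by -0.96 ± 0.23 (SE, adjusted p = 0.00429) and -0.79 ± 0.22 (SE, adjusted p = 0.0107).

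Prkar2b moved the other way. In imprints Prkar2b stood at 61.4 and 252 CPM in perseverers, against 92.4, 280.2 and 249.8 CPM in renouncers. In OFC dissections Prkar2b stood at 79.9, 81.1 and 52.4 CPM in perseverers, against 92.2, 61.9 and 78.3 CPM in renouncers. Imprint perseverer 2 and renouncers 2 and 3 lay far above all dissections, renouncer 1 was level with the highest OFC dissection, and perseverer 1 lay within the dissection range. The log2 fold change was 1.34 ± 0.34 (SE, adjusted p = 0.0065), and without imprint perseverer 2 it was 0.98 (adjusted p = 0.0667).

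Of the cyclases, Adcy3 was lower at -1.999 ± 0.48 (SE, adjusted p = 0.00421), Adcy1 at -1.03 ± 0.32 (SE, adjusted p = 0.0208) and Adcy5 at -0.88 ± 0.32 (SE, adjusted p = 0.0431). The Adcy1 call was lost without imprint perseverer 1 (adjusted p = 0.0593) or perseverer 2 (0.0523). Adcy7, which Gβγ subunits stimulate and which is known from blood cells and brain, was higher at 2.06 ± 0.69 (SE, adjusted p = 0.0297). Adcy7 counts were 32 and 2 in perseverer imprints and 30, 8 and 0 in renouncer imprints. The Adcy7 rise rested on perseverer 1 and renouncer 2, at 31.7 and 22.2 CPM against at most 4.53 CPM in the OFC dissections, and without perseverer 1 it was 1.18 (adjusted p = 0.27). The Adcy7 call was lost in 6 of the 11 fits without 1 library, with log2 fold changes from 1.18 to 2.16: those without imprint perseverer 1, imprint renouncer 2, OFC renouncer 2 or each of the 3 OFC perseverers.

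Pde5a, which is specific for cyclic GMP and known from smooth muscle and platelets, had the largest rise. In imprints Pde5a stood at 0 and 42.8 CPM in perseverers, against 16.9, 25.0 and 20.6 CPM in renouncers. In OFC dissections Pde5a stood at 2.07, 2.32 and 2.67 CPM in perseverers, against 2.93, 3.31 and 2.72 CPM in renouncers. The 4 imprints above 0 exceeded all dissections on 17, 109, 9 and 13 counts, while perseverer 1 was at 0. The log2 fold change of Pde5a was 2.91 ± 0.63 (SE, adjusted p = 0.00192), and the call held without each of the 11 libraries.

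Pde3b, a cAMP phosphodiesterase known from fat and liver, was higher by 1.15 ± 0.36 (SE, adjusted p = 0.0225), at 16.3 to 52.7 CPM in imprints and 9.24 to 18.7 CPM in OFC dissections. The Pde3b call was lost without imprint renouncer 2 (adjusted p = 0.0531), OFC renouncer 1 (0.0513) or OFC renouncer 3 (0.0593). Pde4d, a cAMP-specific enzyme, was higher by 0.99 ± 0.37 (SE, adjusted p = 0.0497), at 8.32 to 23.7 CPM in imprints and 6.44 to 10.4 CPM in OFC dissections. The Pde4d call was lost in 9 of the 11 fits without 1 library. The Adcy5 call was lost in 8 of the 11.

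**Figure D4:**
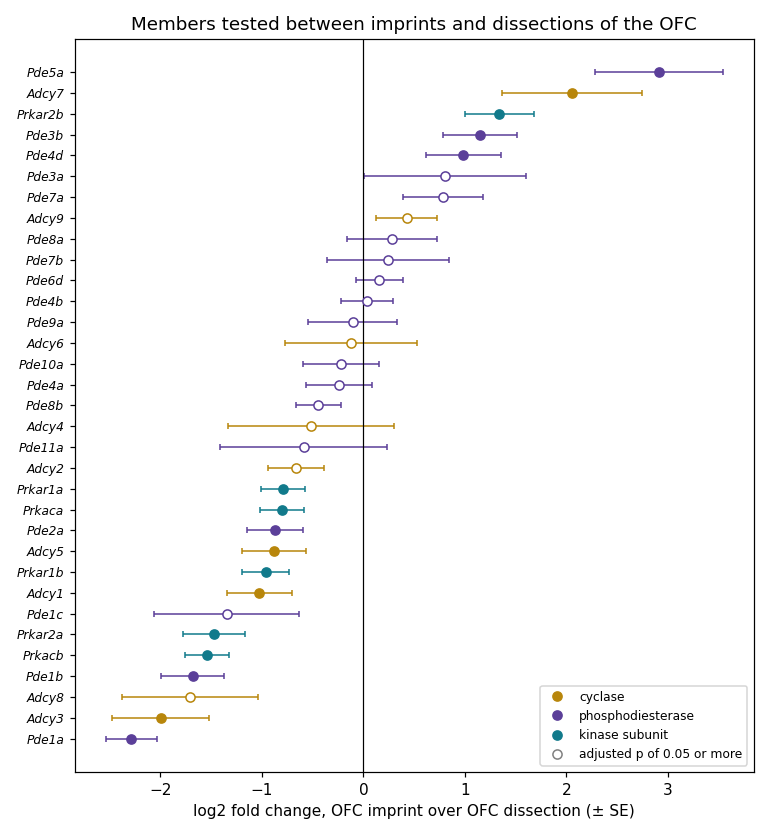
Log2 fold change of each of the 33 tested members, OFC imprint over OFC dissection, with bars for the SE; filled points have an adjusted p under 0.05 and colours give the class. Pde1a has the lowest value at -2.29 and Pde5a the highest at 2.91.

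Markers of several cell types moved between imprints and dissections, and their part in these 16 calls was not tested. Of 6 excitatory neuron markers 5 were lower in imprints and none higher, with a median log2 fold change of -1.15. Of 6 interneuron markers 5 were lower and none higher, with a median of -1.65 and sums of 183 to 376 CPM in imprints, against 635 to 963 CPM in OFC dissections. Of 7 astrocyte markers 4 were lower and 1 higher, with a median of -0.64, while their sums overlapped at 4950 to 14546 CPM in imprints and 6797 to 9311 CPM in OFC dissections. Of 7 microglia markers 6 were higher and none lower, with a median of 0.97 and sums of 1128 to 2390 CPM in imprints, against 777 to 1045 CPM in OFC dissections. All tested platelet, lymphocyte, and neutrophil and monocyte markers were higher in imprints, 8 of each list. The summed level of 8 platelet markers was 2152 and 7088 CPM in perseverers, against 3900, 7095 and 8251 CPM in renouncers in imprints, and 173 to 231 CPM in OFC dissections, where Gp1bb alone gave 168 to 226 CPM. The sum of 8 lymphocyte markers was 2421 and 1649 CPM in perseverers, against 138, 1421 and 849 CPM in renouncers in imprints and 0.563 to 1.31 CPM in OFC dissections, with 2 to 6 of the 8 genes at 0. The 10 neutrophil and monocyte markers summed to 3578 and 3642 CPM in perseverers, against 4336, 9329 and 1595 CPM in renouncers in imprints and 42.3 to 254 CPM in OFC dissections. The 3 imprints with the highest Prkar2b also had the highest platelet sums, and perseverer 1, with Pde5a at 0, had the lowest. Those 3 imprints also had the fewest counts outside haemoglobin, 980475 to 1082408, and no link was tested. The lymphocyte sum was highest in perseverer 1, the library with the highest Adcy7. The order did not hold further, since perseverer 2 had the next highest sum and renouncer 2 the next highest Adcy7.

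Without imprint renouncer 1, 16 members were again called, 15 of them shared with the fit of all 11 libraries. In 8 of 33 tested members the imprints did not overlap the OFC dissections, all of them lower in imprints, where 25% of all genes did not overlap, 7.99% of them higher and 17% lower. They were Adcy3, Pde1a, Pde1b, Prkaca, Prkacb, Prkar1a, Prkar1b and Prkar2a. Of the 17 tested members that were not called, Adcy8 had -1.71 ± 0.67 (SE, adjusted p = 0.0586) and Adcy2 -0.67 ± 0.27 (SE, adjusted p = 0.0723). The other 15 had log2 fold changes from -1.35 for Pde1c to 0.80 for Pde3a.

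Of the partners 9 of 48 tested were higher and 12 lower, with a median log2 fold change of -0.35. Higher were Gnas, the stimulatory G protein of cyclases, by 1.26 ± 0.26 (SE, adjusted p = 0.00144), the inhibitory Gnai2 by 1.504 ± 0.19 (SE, adjusted p = 1.40e-05) and the anchoring protein Akap13 by 2.85 ± 0.32 (SE, adjusted p = 4.30e-06). Lower were the inhibitory Gnai1 by -1.83 ± 0.22 (SE, adjusted p = 8.70e-06), the kinase inhibitor peptide Pkia by -2.54 ± 0.29 (SE, adjusted p = 5.12e-06) and the anchoring protein Akap11 by -1.61 ± 0.23 (SE, adjusted p = 5.58e-05). Gnal, the stimulatory G protein of olfactory and striatal neurons, was lower by -0.78 ± 0.20 (SE, adjusted p = 0.00715).

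The design compares mice labelled perseverers and renouncers, in imprints taken before the protocol and in dissections taken after it. Between perseverers and renouncers no member passed in any of the 3 sets of libraries, and 0% of the genes tested did. In the imprints before oDASS 0 of 27 tested members passed with edgeR, and 1 had an unadjusted p under 0.05. In the OFC dissections the counts were 0 of 33 and 0, and in the mPFC dissections 0 of 32 and 1. DESeq2 also called 0 members in each. In simulated data the 3 edgeR fits recovered 0%, 49.3% and 28.4% of genes changed 2-fold, so 0 calls do not show equal levels. Over all genes 181, 377 and 639 had an unadjusted p under 0.05.

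Pde4a was the member with the smallest p in the imprints and in the mPFC. In imprints Pde4a stood at 59.4 and 35.2 CPM in perseverers, against 139, 58.3 and 152 CPM in renouncers, with a log2 fold change of -1.31 ± 0.59 (SE, adjusted p = 1). In OFC dissections Pde4a stood at 116, 113 and 116 CPM in perseverers, against 111.3, 95.003 and 79.6 CPM in renouncers, with 0.29 ± 0.16 (SE, adjusted p = 0.951). In mPFC dissections Pde4a stood at 105, 89.9 and 88.7 CPM in perseverers, against 70.4, 57.3 and 82.0 CPM in renouncers, with 0.45 ± 0.18 (SE, adjusted p = 0.943). In both regions every perseverer dissection lay above every renouncer dissection, and in imprints the groups overlapped and the sign was opposite. Shares of all genes with such separation are given below for each region. The difference between the phenotype effect in imprints and that in OFC dissections was -1.55 ± 0.52 (SE, adjusted p = 0.46) on the log2 scale and did not pass.

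Adcy5 and Adcy1 were next in the mPFC. In OFC dissections Adcy5 stood at 73.3, 51.3 and 94.6 CPM in perseverers, against 58.2, 59.2 and 48.8 CPM in renouncers, with 0.42 ± 0.22 (SE, adjusted p = 0.951). In mPFC dissections Adcy5 stood at 56.4, 42.5 and 114.3 CPM in perseverers, against 49.2, 42.5 and 47.8 CPM in renouncers, with 0.65 ± 0.33 (SE, adjusted p = 0.943). The highest Adcy5 library of each region was perseverer 3, and the groups overlapped. Leaving out 1 library gave Adcy5 log2 fold changes of 0.16 to 0.64 in the OFC and 0.08 to 0.92 in the mPFC. In imprints Adcy5 stood at 24.8 and 22.7 CPM in perseverers, against 49.8, 16.6 and 42.7 CPM in renouncers, with -0.67 ± 0.73 (SE, adjusted p = 1). Adcy1 had 0.78 ± 0.40 (SE, adjusted p = 0.943) in the mPFC and 0.32 ± 0.42 (SE, adjusted p = 0.955) in the OFC, where perseverer 3 was again the highest library. The mPFC value of Adcy1 was 0.26 to 1.16 with 1 library left out. Adcy4, a cyclase known from endothelium, had 0.95 ± 0.53 (SE, adjusted p = 0.951) in the OFC. Adcy4 stood at 1.59, 3.48 and 2.74 CPM in perseverers, against 2.07, 0.423 and 1.56 CPM in renouncers in those dissections, with overlapping groups. In mPFC dissections Adcy4 stood at 1.28, 2.54 and 0.226 CPM in perseverers, against 4.44, 1.03 and 2.56 CPM in renouncers, with -1.01 ± 0.82 (SE, adjusted p = 0.943), and in imprints it was at 2.32 CPM in renouncer 1 and at 0 in the other 4.

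Pde10a and Pde2a had the next smallest p in the imprints. In imprints Pde10a stood at 9.90 and 7.55 CPM in perseverers, against 33.5, 11.1 and 26.9 CPM in renouncers, with both perseverers below the 3 renouncers and a log2 fold change of -1.48 ± 0.96 (SE, adjusted p = 1). Those values rest on 10 and 3 counts in perseverers and 216, 4 and 17 in renouncers. In OFC dissections Pde10a stood at 20.1, 24.1 and 17.8 CPM in perseverers, against 25.1, 20.9 and 20.1 CPM in renouncers. In mPFC dissections Pde10a stood at 27.2, 25.4 and 23.1 CPM in perseverers, against 21.4, 42.3 and 24.0 CPM in renouncers. The Pde10a phenotype groups overlapped in both regions. Pde2a had -0.79 ± 0.54 (SE, adjusted p = 1) in imprints, 0.29 ± 0.16 (SE, adjusted p = 0.951) in the OFC and 0.37 ± 0.21 (SE, adjusted p = 0.943) in the mPFC.

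**Figure D5:**
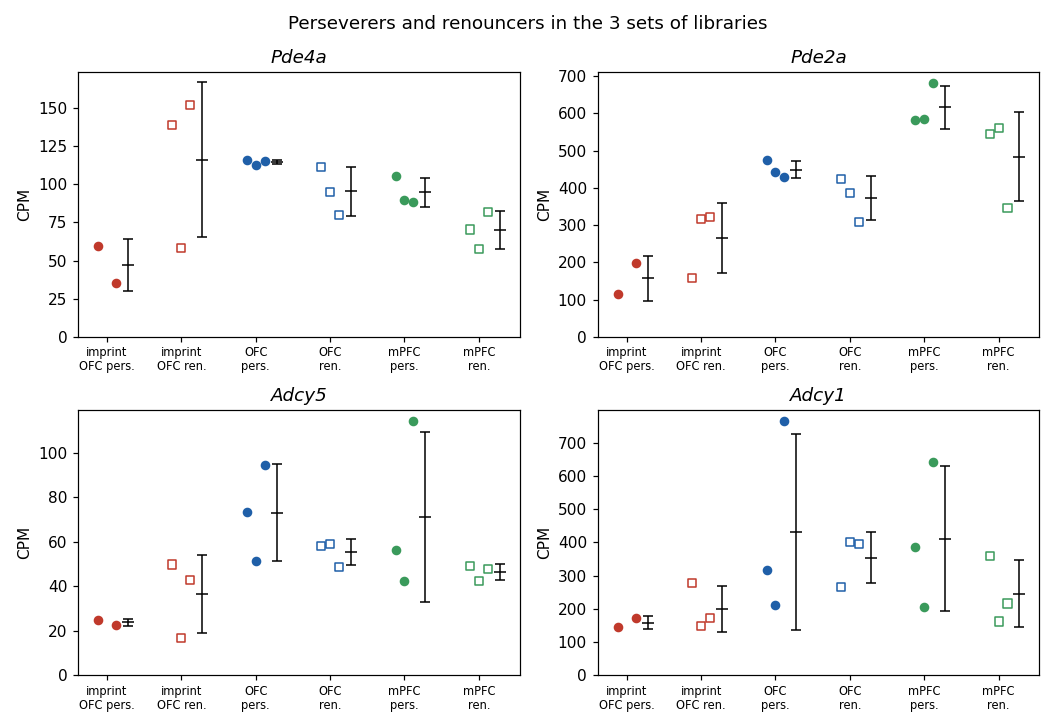
CPM of Pde4a, Pde2a, Adcy5 and Adcy1 in every library, with perseverers as filled circles left of renouncers as open squares in imprints (red), OFC dissections (blue) and mPFC dissections (green), and the group mean ± SD in black. Perseverer dissections lie above renouncer dissections in both regions for Pde4a and Pde2a, and no difference passed the test. Such separation held for 4.79% of genes tested in the OFC and 5.22% in the mPFC, each region counted alone.

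Phenotype groups did not overlap for 4 of 27 tested members in the imprints, where 16.2% of all genes did not, 8.97% higher and 7.26% lower. Pde7a, a cAMP-specific enzyme known from lymphocytes, and Prkar1a were higher in perseverer imprints, and Pde10a and Pde8b were lower. In the OFC dissections this held for 4 of 33, against 9.08% of genes (4.79% higher and 4.29% lower), with Pde2a, Pde4a and Pde8b higher and Pde5a lower in perseverers. In the mPFC it held for 2 of 32, against 11.3% of genes (5.22% higher and 6.09% lower), both higher: Pde2a and Pde4a. Members with a positive log2 fold change numbered 7 of 27 in imprints, with a median of -0.31 against -0.03 over all genes. That median was -0.63 without imprint perseverer 2 and -0.16 without imprint renouncer 1, the extremes over the 5 libraries left out. Positive values numbered 19 of 33 in the OFC, with a median of 0.03 that was -0.06 without OFC perseverer 2, and 16 of 32 in the mPFC, with a median of 0.07 that was -0.01 without mPFC renouncer 1, against 0.00 over all genes in both. Of the 32 members tested in both regions, 14 were higher in perseverers in both, 12 lower in both and 6 of opposite sign. Shares over all genes for agreement between the regions were not computed. Same-numbered libraries of the 2 regions deviated together in 5 of 6 pairs, so the regions may not be independent of each other. Some libraries of opposite phenotype also deviated together, such as OFC renouncer 1 and mPFC perseverer 2 (correlation 0.41).

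The interaction of phenotype with region had 0 of 34 members past the threshold and 0 with an unadjusted p under 0.05, and DESeq2 called 0. Over all genes 0% passed and 225 had an unadjusted p under 0.05. Its smallest member p was that of Adcy4, at 1.99 ± 1.05 (SE, adjusted p = 1). The interaction of phenotype with collection had 0 of 33 past the threshold and 4 with an unadjusted p under 0.05, DESeq2 called 0, 0% of all genes passed and 1336 had an unadjusted p under 0.05. Pde4a was the smallest of these. Adcy8 and Pde3a were at 0 in both perseverer imprints, so their fitted values depend on the prior count and are not given. Of the partner genes 0 passed in any phenotype comparison or interaction. Crtc1, a CREB coactivator, had 0.47 ± 0.17 (SE, adjusted p = 0.951) in the OFC and 0.61 ± 0.25 (SE, adjusted p = 0.943) in the mPFC.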

How the data were processed

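Bulk RNA was measured in 17 libraries, extracted with a Qiagen micro kit and made into libraries with SMART-Seq v4 and Nextera reagents per the labels' protocols, a method that does not keep the strand. The authors deposited 3 tables of raw read counts per gene, with 25239 genes each, and a gene length in bases. The submitters' processing notes name mm10 and FastQC 0.11.8; which aligner, counter and annotation were used is not given in the sources used here.

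Deposited counts were tested with edgeR 4.0.16 in R 4.3.3: filterByExpr by group, TMM factors within each comparison, a robust quasi-likelihood fit over all genes, two-sided tests and Benjamini-Hochberg adjustment over all genes tested, with a threshold of 0.05. The SE is the absolute log2 fold change over the root of its F statistic. The 3 phenotype comparisons used only their own libraries, the regions the 12 dissections and collection the 11 OFC libraries, both adjusted for phenotype, and each interaction contrasted 4 group means. CPM come from 1 TMM scaling of all 17 libraries, so ratios of CPM can differ from fitted fold changes. Shared replicate numbers were checked and not taken to pair the libraries.

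Genome positions and shared exon bases are from GENCODE M21 (GRCm38), and promoter windows from RefSeq (GRCm38.p6), searched over the 250 bases before the start and not over the 50 after it. The fits were tested on simulated data. Of genes changed 2-fold, the phenotype fits recovered 0 of 67 in imprints, 33 of 67 in the OFC and 19 of 67 in the mPFC. Of genes changed 4-fold, they recovered 3 of 66, 61 of 66 and 52 of 66. The interaction with region recovered 4 of 67 and 37 of 66, and that with collection 0 of 67 and 0 of 66. Values in every library are given for members past the threshold (in the collection comparison the 12 with the smallest p), for the 3 smallest p of each phenotype comparison and for the 3 highest per-length levels of each class. Alternatives were DESeq2 1.42.0, RLE and upper-quartile scaling, no filter and a stricter one, removal of haemoglobin genes, a fit of all libraries, sample code number as a covariate, a replicate block and leaving out each library. The members and lists were chosen with earlier results of these data known.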

Additional observations from a re-analysis of the deposited data

Results flagged for a closer look

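Outlying libraries were sought for each tested member within the 5 imprints, the 6 OFC and the 6 mPFC dissections. A library was singled out when its gap to the nearest other library, divided by the full range, exceeded the 95% critical value of Dixon's test. Chance passes that value in about 1 of 20 cases. This held in 11 of 101 sets of libraries examined. No explanation was weighed for any of them.

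The cyclases Adcy1 and Adcy5 were high in perseverer 3 dissections. Adcy1 reached 767 CPM in OFC perseverer 3, against 401 CPM in the next library. Adcy5 reached 114.3 CPM in mPFC perseverer 3, against 56.4 CPM in the next. In the same mPFC library Pde9a was high at 18.2 CPM, against 12.6 CPM. Pde1a was low there at 163 CPM, against 258 CPM, and Prkar1a was low at 844 CPM, against 1105 CPM. That library held 17895184 counts, within the range of the other dissections.

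Adcy2, which varied least of all members, was low in OFC renouncer 3 at 208 CPM, against 234 CPM in the next library. Pde10a was high in mPFC renouncer 2 at 42.3 CPM, against 27.2 CPM. Among imprints Adcy1 was high in renouncer 1 at 277 CPM, against 171 CPM, and Adcy4 was at 2.32 CPM there and at 0 in the other 4. The dual-specificity Pde11a was at 2.77 CPM in imprint renouncer 2, which is 1 count, against 0.775 CPM in the next. The calmodulin-dependent Pde1c was at 8.91 CPM in imprint perseverer 1, which is 9 counts, against 0.775 CPM.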

How the results depend on the processing

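Between regions 2 members were called, and the count moved with the processing. Of 34 tested members, 1 was called in the fit of all 17 libraries, 1 with the sample code number as a covariate and 1 with the oligodendrocyte level as a covariate. Leaving out 1 library gave 1 to 3. The member lost was Pde8a each time, with log2 fold changes of 0.98 (adjusted p = 0.574) over 17 libraries and 0.98 (adjusted p = 0.0614) with the code number; Pde8b passed in all alternatives run. Over all genes the region calls numbered 264, against 685 with DESeq2, 21 over 17 libraries, 21 with the oligodendrocyte level, and 120 to 448 without 1 library. For imprints over dissections 16 members were called, 13 to 20 in the other settings and 11 to 17 without 1 library. Pde1a, Pde1b, Adcy3, Prkaca, Prkacb, Prkar1a, Prkar1b and Prkar2a passed in all of them. Signs were checked for the members called in a comparison or, with none called, for those with its 3 smallest p, and none changed. Signs of the other fold changes given were not checked. The medians over members, close to 0, changed sign in both dissection phenotype comparisons and between regions, where the oligodendrocyte level gave 0.16. No alternative called a member for phenotype or an interaction. The fit of 17 libraries called 63 genes for phenotype in the imprints, against 0, and for the interaction with collection DESeq2 called 73, the fit of 17 libraries 6 and the fit without imprint perseverer 2 called 4, against 0.

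Same-numbered libraries of the 2 regions deviated together in 5 of 6 pairs (correlations over 0.1, range -0.0269 to 0.586). The sample code numbers are consecutive within each pair. Libraries of opposite phenotype also correlated, in either direction: OFC renouncer 1 stood at 0.51 with OFC perseverer 2 and at -0.56 with OFC perseverer 3. The labels name no shared animal, so the libraries were not taken as pairs, and whether they share animals is not known. With the replicate block 5 members were called between regions (Pde1a, Pde2a, Pde8a, Pde8b and Prkar1a) and 1130 genes, and 14 members between imprints and dissections. Depth limits the imprints most: 1 count is worth up to 2.77 CPM there.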
